A study of Rattus norvegicus with 6 samples.

Results

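MicroRNAs of the vessel wall were read in rat kidney after aristolochic acid (AA), a nephrotoxic and carcinogenic plant acid that forms DNA adducts. They were miR-126, carried mainly by endothelial cells, and miR-143 and miR-145, carried mainly by smooth muscle and related mesenchymal cells. Members were the probes whose rat name is rno-miR-126, rno-miR-143 or rno-miR-145, with or without an arm suffix, together with probes that carry the same miRNA name in another species. Names ending in an asterisk, which mark the other strand of a hairpin, were left out. The rule found 12 of the 5560 probes on the array, 4 for each miRNA, of which 3 were rat probes and 9 were listed only for other vertebrates. The 12 members were among the 1132 probes tested, a set limited to probes that reached an intensity of 32 on at least 1 array in the deposited table. Of the 12, 11 reached 32 on all 6 arrays, so they did not enter the test through 1 group alone. The exception, pma-miR-126, reached 32 on 2 arrays, control replicate 14 at 40.6 and AA replicate 19 at 86.4.

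Each of the 6 arrays held kidney RNA of 1 male rat, Fisher 344 in strain and Big Blue transgenic in genotype, aged 6 weeks when treatment began. Control replicates 13, 14 and 15 were untreated. AA replicates 19, 20 and 21 were gavaged with the sodium salt of AA. Each dose was 10.0 mg/kg in 4 ml/kg, there were 5 doses a week over 12 weeks, and the rats were killed 1 day after dosing ended. The labels describe the controls as untreated and mention no gavage of vehicle, so dosing itself and AA cannot be told apart. The Big Blue transgene is a bacterial reporter used to score mutations, and both groups carry it. In RNA from whole kidney, fewer cells of a type and less RNA for each cell cannot be told apart.

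A mature miRNA guides the silencing complex to messenger RNAs, mostly through its seed, the bases near its 5′ end that pair with the target. miR-126 lies inside Egfl7, a gene of endothelial cells, and represses Spred1 and Pik3r2, which restrain signalling downstream of vascular endothelial growth factor. miR-143 and miR-145 are made from 1 locus inside the long non-coding RNA Carmn and help to hold smooth muscle cells in the contractile state, with Elk1 known as a target of miR-143 and Klf4 and Klf5 as targets of miR-145. In kidney, endothelium lines the glomerular and peritubular capillaries, while cells of the smooth muscle lineage form the arteriolar wall and the mesangium.

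The target sequences of the 3 rat probes are shown first because the comparison rests on them. Capitals mark the seed, bases 2 to 8, and U is written as on the array.
rno-miR-126: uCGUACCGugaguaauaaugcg
rno-miR-143: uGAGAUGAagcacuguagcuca
rno-miR-145: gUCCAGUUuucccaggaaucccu
The 3 seeds differ from one another, and each was shared by 0 other rat-named probes on the array. Each sequence had 1 exact match among the mature miRNAs of RefSeq for the rat assembly GRCr8. The array files name no build. The miR-126 sequence matched rno-miR-126a-3p of the gene Mir126b at chr3:29813219-29813240 on the plus strand, within Egfl7 on the same strand. The miR-143 sequence matched rno-miR-143-3p of Mir143 at chr18:57371373-57371394 on the minus strand. The miR-145 sequence matched rno-miR-145-5p of Mir145 at chr18:57370033-57370055 on the minus strand. Both hairpins lie within Carmn on that strand, with 1278 bases between them.

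The probes of other species differ from the rat targets in length or in a few bases, and those that differ in ways the results refer to are given next. Positions in substitutions are counted from 1 at the 5′ end, with the rat base first.
bta-miR-126: cGUACCGUgaguaauaaugcg
pma-miR-126: uCGUACCGugaguaauaacgug
pma-miR-143: uGAGAUGAagcacuguaacucc
oan-miR-145: gUCCAGUUuucccaggaau
The bta-miR-126 target lacks the first rat base, so that bases 2 to 8 are shifted by 1, and gga-miR-126 has 1 extra base at its 3′ end. The pma-miR-126 target carries U19C and C21U, and pma-miR-143 carries G18A and A22C. Among the other miR-143 probes, hsa-miR-143 lacks the last rat base and mdo-miR-143 carries A22G. For miR-145, dre-miR-145 is 1 base shorter than the rat target, ggo-miR-145 is 1 base longer, and oan-miR-145 is 4 bases shorter. Probes of a family share most of their target and can bind the same rat RNA, so they are repeated readings of a miRNA and not replicates.

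AA replicate 20 stood apart from the other 5 arrays before any member was considered. Its mean probe signal above the empty spots was 149, against 263 to 484 on the other arrays, and 66.8% of its tested probes passed the level called well above background, against 84.9% to 97.9% elsewhere. It also carried rno-miR-122, the main miRNA of hepatocytes, at a deposited intensity of 15191, against 8.17 to 48.5 on the other 5 arrays. The part of this array's low signal and of its hepatocyte marker in the results was not tested, and the differences between groups are given with and without it. The kidney label was checked against nephron epithelial miRNAs. For that list 9 of 11 probes reached 32 on all 6 arrays and 2, rno-miR-141 and rno-miR-204, on none. Their summed deposited intensity was 13869 to 16172 in control and 10472 to 17790 in AA, the lowest on replicate 20.

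None of the 12 member probes passed the test between AA and control. limma called 0 of 12 at an adjusted p of 0.05, against 0.177% of all tested probes, and 0 of 12 at an unadjusted p of 0.05, against 4.95% (1.15% higher and 3.8% lower in AA). The control and AA arrays overlapped for every member, so 0 of 12 had groups that did not overlap, against 9.98% of the tested probes. The log2 differences, AA minus control, ran from -0.34 to 0.21 with a median of -0.083, beside a median of -0.053 over all tested probes. Of the 12, 8 differences were below 0, beside 54.2% of the tested probes. Without AA replicate 20 the median was 0.28 and 11 of 12 differences were above 0, beside 49.6% of the tested probes. The rat-named probes tested then had a median of 0.15, with 115 of 180 above 0. Again 0 members were called by limma, against 0.265% of the tested probes. At an unadjusted p of 0.05 the members also had 0, against 8.04%. With array quality weights limma again called 0 members, but 6 of 12 had an unadjusted p under 0.05, against 21.5% of the tested probes. These were rno-miR-143 at 0.60, hsa-miR-143 at 0.65 and the 4 miR-145 probes at 0.73 to 0.90, with adjusted p of 0.0887 to 0.197. The weights were 2.89, 5.17 and 0.453 for control replicates 13, 14 and 15. For AA replicates 19, 20 and 21 they were 0.581, 0.124 and 2.06. Which of these weights moved the members was not tested.

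The endothelial miRNA rno-miR-126 gave a normalized log2 signal of 10.49, 10.66 and 10.50 on control replicates 13, 14 and 15. On AA replicates 19, 20 and 21 it was 10.94, 9.04 and 10.84. The 3 control values lay close together, AA replicates 19 and 21 were above all of them, and AA replicate 20 was below all of them. The means were 10.55 ± 0.10 in control and 10.27 ± 1.06 in AA (SD, n = 3 each). The difference was -0.28 (standard error 0.51, adjusted p = 0.918 by limma). Its 95% interval, from -1.48 to 0.92, spans folds of 0.358 to 1.90, so these arrays leave room for a lower or a higher level within those bounds. When AA replicate 20 was left out the difference turned to 0.33 (standard error 0.21, adjusted p = 0.721 by limma), with an interval of -0.18 to 0.84. The deposited intensities were 1357, 1437 and 1210 in control and 1646, 602 and 1428 in AA, where replicate 20 was again the lowest of the 6 arrays and replicate 21 lay within the control range.

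The smooth muscle miRNA rno-miR-143 gave 8.54, 8.42 and 9.37 on the control arrays and 8.74, 8.51 and 9.26 on the AA arrays, in replicate order. Control replicate 15 and AA replicate 21 were high, the other 4 arrays lay lower, and the groups overlapped. The means were 8.78 ± 0.52 and 8.84 ± 0.39 (SD, n = 3 each). The difference was 0.056 (standard error 0.36, 95% interval -0.79 to 0.90, adjusted p = 0.953 by limma), and 0.24 with AA replicate 20 left out (standard error 0.38, adjusted p = 0.864). Its sign turned when control replicate 13 (-0.06), control replicate 14 (-0.12) or AA replicate 21 (-0.16) was left out. The log2 signal of AA replicate 20 minus the mean of the other 5 arrays was -0.36 for this probe, while for rno-miR-126 it was -1.64.

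rno-miR-145, which shares the hairpin cluster with miR-143, gave 10.04, 10.04 and 11.00 on the control arrays and 10.54, 9.59 and 11.17 on the AA arrays. Control replicate 15 and AA replicate 21 were again the high arrays, and AA replicate 20 was the lowest of the 6. The means were 10.36 ± 0.55 and 10.43 ± 0.80 (SD, n = 3 each). The difference was 0.076 (standard error 0.48, 95% interval -1.04 to 1.19, adjusted p = 0.953 by limma). On the 5 remaining arrays, with AA replicate 20 left out, it was 0.50 (standard error 0.38, adjusted p = 0.747). The same omissions turned its sign, to -0.085 for control replicate 13, -0.083 for control replicate 14 and -0.29 for AA replicate 21.

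The spread between arrays of a group set what could be seen. For rno-miR-126 the SD was 1.06 in AA, where replicate 20 lay below the other arrays, and 0.10 in control. For rno-miR-143 and rno-miR-145 control replicate 15 lay above the other control arrays, and the control SDs were 0.52 and 0.55. Between spots of the same probe on an array, the median coefficient of variation over the members was 4.98% to 16.9% by array, and the highest for a single member was 43.1%, on control replicate 14.

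The 9 probes of other species were read beside the rat probes. For miR-126 the closest probes, which share nearly the whole target, gave differences of -0.26 for bta-miR-126 and -0.067 for gga-miR-126, and pma-miR-126 gave -0.11. The 4 miR-126 differences were below 0 with AA replicate 20 and above 0 without it, between 0.084 and 0.33. For miR-143, hsa-miR-143 gave 0.046, mdo-miR-143 -0.13 and pma-miR-143 -0.34, the lowest of the 12 members, with a standard error of 0.32 (adjusted p = 0.885 by limma). Its values were 8.07, 8.03 and 8.11 in control and 8.11, 7.13 and 7.95 in AA, so AA replicate 20 was low and AA replicate 19 was level with control. For miR-145, dre-miR-145 gave -0.077, oan-miR-145 -0.088 and ggo-miR-145 0.21, the highest of the 12. The latter gave 9.97, 9.73 and 10.70 in control and 10.50, 9.62 and 10.91 in AA, and the groups overlapped. The 95% interval of every member contained 0 with all 6 arrays and with AA replicate 20 left out. The widest was that of oan-miR-145, -1.47 to 1.30, and the narrowest that of pma-miR-143, -1.09 to 0.42. The family medians were -0.18 for miR-126, -0.043 for miR-143 and -0.00072 for miR-145, and 0.28, 0.17 and 0.54 on the 5 arrays other than AA replicate 20.

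The probes of a family were compared with their rat probe across arrays. After each probe was centred on its mean over the 6 arrays, the root mean square difference from the rat probe was 0.053 for hsa-miR-143, 0.095 for dre-miR-145 and 0.13 for bta-miR-126. It was 0.14 for mdo-miR-143 and for ggo-miR-145, and 0.32 for gga-miR-126, whose target holds the whole rat sequence. It was 0.42 for pma-miR-143, 0.53 for pma-miR-126 and 0.32 for oan-miR-145. Ranked among the 1131 other tested probes by this distance, hsa-miR-143 and dre-miR-145 were each the nearest to their rat probe, and bta-miR-126 stood at rank 3, ggo-miR-145 at 4, mdo-miR-143 at 6, oan-miR-145 at 52 and gga-miR-126 at 71. pma-miR-126, the member that reached 32 on 2 arrays, was at rank 341, and pma-miR-143 at rank 350. On the centred scale, rno-miR-126 stood at -1.37 on AA replicate 20, while the remaining values ran from 0.077 to 0.53. rno-miR-143 stood at 0.56 on control replicate 15 and 0.45 on AA replicate 21, and the rest ran from -0.38 to -0.068. rno-miR-145 stood at 0.60 and 0.78 on those same arrays, at -0.81 on AA replicate 20, and the rest ran from -0.36 to 0.14. These distances are descriptions, since the probes share a target and the arrays share their normalization.

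Probes of a family lay apart from one another on AA replicate 20 and on other arrays. After centring, the offset from the rat probe on AA replicate 20 was -0.61 for the 19-base oan-miR-145, -0.17 for dre-miR-145 and 0.19 for ggo-miR-145. For miR-143 it was -0.028 for hsa-miR-143, -0.23 for mdo-miR-143 and -0.47 for pma-miR-143. For miR-126 the offsets were 0.22 for bta-miR-126, 0.61 for gga-miR-126 and 0.97 for pma-miR-126. The last probe was near the floor on AA replicate 20, with a scanner signal of 2.9 above the empty spots. Offsets on other arrays included -0.79 for pma-miR-126 on AA replicate 21. On control replicate 14 they were 0.51 for pma-miR-143 and -0.41 for gga-miR-126. A pair of zebrafish probes outside the rule, dre-miR-126a and dre-miR-126b, were read as well because their names carry a letter suffix. dre-miR-126a, whose target lies wholly within the rat sequence, gave 10.60, 10.58 and 10.39 in control and 10.72, 7.96 and 10.44 in AA. Its difference was -0.82 with a standard error of 0.69, and 0.052 without AA replicate 20. dre-miR-126b, which carries A18G and G22A, had a difference of -0.35, and -0.051 without that array.

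AA replicate 20 was below every other array for 10 of the 12 member probes (83.3%), beside 46.5% of all tested probes. The share was 82.4% for the 17 tested probes of the endothelial list given below and 42.9% for the 14 of the smooth muscle list. The difference of AA replicate 20 from the mean of the other 5 arrays had a median of -0.92 over the members, beside -0.26 over all tested probes. It was -0.71 over the endothelial list and -0.39 over the smooth muscle list. By family, it was below every other array for 4 of 4 miR-126 probes, 2 of 4 miR-143 probes and 4 of 4 miR-145 probes, with medians of -1.14, -0.52 and -1.07. For pma-miR-126 the count rests on log2 values near the floor, 5.96 on AA replicate 20 and 5.99 on AA replicate 21. Its scanner signal above the empty spots was 2.9 and 2.02 on these arrays. In the deposited intensities AA replicate 20 was the lowest array for 8 of 12 members, beside 43.1% of the tested probes in that table. By family that held for 4 of 4 miR-126, 2 of 4 miR-143 and 2 of 4 miR-145 probes. There rno-miR-145 was at 1019 on AA replicate 20, above control replicates 13 and 14 at 991 and 920, and ggo-miR-145 was at 1039, above 899 and 768. Before normalization the order was the reverse. Scanner signal above the empty spots was 134 for rno-miR-145 on AA replicate 20, against 2364 and 1108 on those controls. For ggo-miR-145 it was 136, against 2190 and 939. For rno-miR-126 it was 81.1 on AA replicate 20, against 1122 to 4632 on the other 5 arrays.

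The endothelial miRNA was next set against the smooth muscle miRNAs on the same array, which removes brightness shared by both probes. The log2 difference of rno-miR-126 over rno-miR-143 was 1.95, 2.24 and 1.13 in control and 2.20, 0.54 and 1.57 in AA. The lowest array was AA replicate 20, and the groups overlapped. The group means were 1.77 ± 0.57 and 1.44 ± 0.84 (SD, n = 3 each), a difference of -0.34 with a standard error of 0.59 (exact two-sided permutation p = 0.6, adjusted p = 0.6 over 2 pairs). It was 0.088 when AA replicate 20 was left out (exact permutation p = 1.0). Because each probe binds with its own strength, only the change of this difference between groups can be read, and not its level.

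The log2 difference of rno-miR-126 over rno-miR-145 was 0.45, 0.62 and -0.49 in control and 0.40, -0.54 and -0.34 in AA. Control replicate 15 lay among the AA values and AA replicate 19 among the control values. The means were 0.19 ± 0.60 and -0.16 ± 0.49 (SD, n = 3 each), a difference of -0.35 with a standard error of 0.45 (exact two-sided permutation p = 0.4, adjusted p = 0.6 over 2 pairs). It was -0.17 when AA replicate 20 was left out (exact permutation p = 0.8). With 3 arrays against 3, the smallest p this test can give is 0.10.

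The difference within the clustered pair varied over the 6 arrays with an SD of 0.29, beside 0.67 for rno-miR-126 over rno-miR-143 and 0.53 for rno-miR-126 over rno-miR-145. The log2 difference of rno-miR-145 over rno-miR-143 was 1.50, 1.61 and 1.62 in control, an SD of 0.072, and 1.80, 1.08 and 1.91 in AA, an SD of 0.45. This pair was added after the values were seen and was not tested. The control arrays lay within a narrow range although both probes were high on replicate 15, and among the AA arrays replicate 20 was the lowest.

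The likeness of the array patterns was then ranked over the 179 other rat-named probes tested, by the root mean square difference of centred log2 profiles. From rno-miR-143, rno-miR-145 stood at rank 17 with a distance of 0.26, and from rno-miR-145, rno-miR-143 stood at rank 9. Without AA replicate 20 these ranks were 6 and 1, with a distance of 0.15. From rno-miR-126, rno-miR-145 stood at rank 57 and rno-miR-143 at rank 93, and without AA replicate 20 at ranks 151 and 141. The 3 nearest probes to rno-miR-126 were rno-miR-92b at 0.055, rno-miR-10a-5p at 0.16 and rno-miR-30e at 0.17. For rno-miR-143 they were rno-miR-24 at 0.083, rno-miR-361 at 0.14 and rno-miR-185 at 0.15, and for rno-miR-145 they were rno-miR-140* at 0.19, rno-miR-22 at 0.21 and rno-miR-34b* at 0.22. These neighbours changed with the processing. Under median scaling or with no normalization 0 of the 3 nearest probes were the same for each of the 3 miRNAs, and in the deposited values 0 were the same for rno-miR-126 and rno-miR-145. For rno-miR-145 0 were also the same with cyclic loess, with empty spots subtracted and no normalization, without control replicate 13 and without AA replicate 20. Without AA replicate 20, 1 of 3 was kept for rno-miR-126, where rno-miR-10a-5p stood at rank 47 and rno-miR-30e at rank 36, and 2 of 3 for rno-miR-143.

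The partner strands of the same hairpins were dim. rno-miR-126*, rno-miR-143* and rno-miR-145* reached an intensity of 32 on 0 arrays and were not tested. rno-miR-126* and rno-miR-143* were well above background on 0 arrays, and rno-miR-145* on 2 control and 2 AA arrays, where its deposited intensity did not pass 26.1.

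A list of 22 endothelial and angiogenic miRNAs, which holds miR-126, gave the wider setting, with no probe found under the rat name rno-miR-218. Of its 22 probes 17 were tested, 0 passed in either direction, against 0.177% of all tested probes, and 0 had an unadjusted p under 0.05 by limma, against 4.95%. With AA replicate 20 left out, 3 of the 17 had an unadjusted p under 0.05, against 8.04%. The groups did not overlap for 1 of the 17, against 9.98%. Of the 17, 8 differences were above 0 and 9 below, with a median of -0.074, beside 0.027 over the 180 rat-named probes tested. Without AA replicate 20 the median was 0.31 with 17 of 17 above 0, beside 0.15 and 115 of 180 for the rat-named probes. The highest was rno-miR-132, known to promote angiogenesis by acting on endothelial cells. It gave 6.17, 6.26 and 6.24 in control and 7.20, 6.24 and 6.81 in AA, a difference of 0.53 with a standard error of 0.31 (adjusted p = 0.885 by limma). It was 0.90 without AA replicate 20 and 0.26 without AA replicate 19. The control values were near the lower end of the scale, where pma-miR-126 gave 6.15 at a deposited intensity of 7.66 on control replicate 15. This probe was not tested when 32 on at least 3 arrays was required, and its highest values were on AA replicates 19 and 21. So it may have entered the test through the AA group alone, and its place in the list is a description. The lowest was rno-miR-27a, of the miR-23, miR-27 and miR-24 cluster, which is active in endothelium. It gave 10.27, 10.00 and 10.33 in control and 10.50, 6.93 and 10.31 in AA, a difference of -0.95 with a standard error of 0.89, and 0.21 without AA replicate 20.

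A list of 23 smooth muscle and mesenchymal miRNAs, which holds miR-143 and miR-145, had 24 probes, of which 14 were tested. By limma 0 passed in either direction, against 0.177% of all tested probes. An unadjusted p under 0.05 was found for 4 of the 14, against 4.95% of all tested probes and 11 of the 180 rat-named probes. Of the 14, 10 differences were above 0 and 4 below, with a median of 0.23, beside 0.027 for the rat-named probes. On the 5 arrays other than AA replicate 20 the median was 0.53, beside 0.15, and 12 were above 0. The groups did not overlap for 4 of the 14, against 9.98% of all tested probes and 18 of the 180 rat-named probes. The highest was rno-miR-21, which is known to be raised in injured and fibrotic kidney. It gave 10.93, 10.91 and 10.13 in control and 13.55, 11.18 and 11.92 in AA, so that every AA array lay above every control array. The difference was 1.56 with a standard error of 0.60 (adjusted p = 0.885 by limma). It was 1.95 without AA replicate 20 and 0.92 without AA replicate 19. The lowest was rno-miR-29c, which represses collagen messenger RNAs. It gave 8.38, 8.22 and 7.92 in control and 8.56, 6.48 and 7.76 in AA, a difference of -0.57 with a standard error of 0.52, and -0.013 without AA replicate 20.

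Markers of other cell types were read beside the members. The erythrocyte miRNAs miR-451 and miR-144 summed to a deposited intensity of 51.3 to 66.3 in control and 8.36 to 75.7 in AA, the lowest again on replicate 20, and miR-144 reached 32 on no array. The leukocyte miRNAs summed to 323 to 525 in control and 516 to 576 in AA, with 1 of 4 probes tested. That probe was for miR-150, so the sum rests mostly on 1 miRNA. rno-miR-223 and both arms of miR-142 were under 32 on all arrays, and no probe was found under the rat name rno-miR-155. The striated muscle miRNAs summed to 214 to 535 in control and 120 to 618 in AA, with 1 of 6 probes tested. That probe was rno-miR-206, while rno-miR-1, rno-miR-133a, rno-miR-133b, rno-miR-208 and rno-miR-499 were under 32 on all arrays. The endothelial list, rno-miR-126 and its partner strand, summed to 1210 to 1439 in control and 602 to 1646 in AA. The smooth muscle list, rno-miR-143, rno-miR-145 and their partner strands, summed to 1200 to 2243 and 1370 to 2284. Since the partner strands were dim, these sums repeat the members' own deposited values and are not a separate reading. The part of these other cell types in the members' values was not tested.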

How the data were processed

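Kidney RNA of 3 control and 3 AA rats was hybridised to 1-colour Cy3 miRNA arrays, with groups and replicate numbers taken from the labels. Numbers are not shared between groups, so no arrays were paired. The deposited scanner files hold median pixel intensity of 15066 spots on a linear scale, without background correction. A second deposited table holds normalized intensity, which the authors made by background subtraction and a LOWESS filter. Its LOWESS reference is not given in the sources used here, and it served for the filter and as an alternative. Standard probes, based on miRBase release 17, had 2 spots each. Members, lists and tests were chosen with earlier results of these data known.

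Scanner intensity was corrected by normexp (offset 50), control and empty spots were left out, and log2 signal was quantile-normalized and averaged over spots. A probe was tested if it reached 32 on at least 1 array of the deposited table, or, for 1 probe outside that table, in scanner signal above the empty spots. The groups were fitted with limma 3.58.1 (lmFit, eBayes) in R 4.3.3, and p-values were adjusted by Benjamini-Hochberg over the 1132 tested probes at a threshold of 0.05. The offset understates changes of dim probes. Well above background means above the empty-spot median plus 3 robust SDs. Within-array differences were compared by exact two-sided permutation tests. Probe names are those of the array. The text names every rat probe of the members, other-species probes near the rat target or at the ends of the range, the highest and lowest of each list, and the 3 nearest profiles. The remaining members were also named after their values were seen. The code was tested on simulated data. Alternatives covered background correction, normalization, filter, test, array weights, spot averaging, deposited values and each array left out. The number of arrays and the signal over background limit precision.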

Additional observations from a re-analysis of the deposited data

How the results depend on the processing

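No member passed the threshold under any of 18 alternatives, nor when letter-suffixed names were counted as members. With array quality weights 6 of 12 members had an unadjusted p under 0.05, beside 243 of 1132 probes. The 2 calls among all probes became 0 under cyclic loess (70 at an unadjusted p under 0.05), median scaling (23) and no normalization (5), 44 with array quality weights, and 0 to 3 when 1 array was left out, by limma. Adjusted p ranged over 0.658 to 0.991 for rno-miR-126, 0.191 to 0.994 for rno-miR-143 and 0.108 to 0.996 for rno-miR-145. For every member the sign of the difference turned in at least 1 alternative, counting arrays left out, and the cause was not tested. The median over all tested probes was 0.25 under median scaling, -0.32 with no normalization and -0.15 with subtraction of the empty-spot median of the block. With no normalization rno-miR-143 was at -0.40, hsa-miR-143 at -0.51, rno-miR-145 at -0.56 and ggo-miR-145 at -0.43. With array weights rno-miR-126 was at 0.18, bta-miR-126 at 0.12, gga-miR-126 at 0.33, mdo-miR-143 at 0.41, dre-miR-145 at 0.73, oan-miR-145 at 0.76 and rno-miR-27a at 0.089, and without a change of sign ggo-miR-145 was at 0.90 (adjusted p = 0.0887 by limma), rno-miR-145 at 0.88, hsa-miR-143 at 0.65 and rno-miR-143 at 0.60. The weights put AA replicate 20 at 0.124, control replicate 15 at 0.453 and control replicate 14 at 5.17. With cyclic loess pma-miR-126 was at 0.11 and oan-miR-145 at 0.14, and with median scaling pma-miR-126 was at 0.48, pma-miR-143 at 0.052, oan-miR-145 at 0.17 and dre-miR-126b at 0.22.

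Leaving out 1 array gave -0.62 to 0.33 for rno-miR-126, above 0 only without AA replicate 20, -0.16 to 0.35 for rno-miR-143 and -0.29 to 0.50 for rno-miR-145, both below 0 without control replicate 13, control replicate 14 or AA replicate 21. It gave -0.55 to 0.25 for bta-miR-126, -0.28 to 0.30 for gga-miR-126, -0.42 to 0.084 for pma-miR-126, -0.19 to 0.35 for hsa-miR-143, -0.33 to 0.12 for mdo-miR-143, -0.44 to 0.41 for dre-miR-145, -0.08 to 0.58 for ggo-miR-145, -0.47 to 0.63 for oan-miR-145, -1.31 to 0.052 for dre-miR-126a and -1.48 to 0.21 for rno-miR-27a. rno-miR-126 over rno-miR-143 ranged over -0.73 to 0.088, and over rno-miR-145 from -0.69 to -0.14 in 14 alternatives (exact permutation p = 0.2 to 0.8). The smooth muscle list median was -0.15 with no normalization, 0.60 with array weights and 0.11 to 0.53 with 1 array left out. With array weights 3 of its 14 tested probes were called by limma, beside 44 of all 1132 tested probes. A slide or scan block was not run because files and labels name none, and the pairs were not recomputed where only the limma test or the filter changed.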
